A study of Mus musculus with 10 samples.

Results

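Newly made tail-anchored proteins carry their membrane segment at the very end of the chain, so they reach the endoplasmic reticulum (ER) only after translation has finished. The chaperone SGTA captures them, the BAG6 complex (BAG6, UBL4A and GET4) passes them on to the ATPase GET3, and GET3 delivers them to a receptor of GET1 and CAMLG, which inserts them into the membrane. In the brain, many of the SNARE proteins that drive vesicle fusion at synapses are tail-anchored. The genes described here are the 7 genes of this route in the mouse, Get1, Camlg, Get3 (older symbol Asna1), Get4, Bag6, Ubl4a and Sgta. They were chosen by their place in the pathway around Get1, and Get1 itself was selected on its rise in these same arrays, so its change is given below as a description without a test. A probe set (the group of probes that reports one transcript) that is annotated to exactly 1 gene symbol was found for 6 of the 7 genes, of 19938 genes measured in this way. Ubl4a, at chrX:74365718-74368548 (GRCm38.p6, like all positions below), was represented by a probe set shared with the readthrough gene Gm44504, and no value is given for it.

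RNA came from the hippocampus, right and left together, of male mice aged 16 weeks on a C57BL/6N background according to the labels. One group of 5 mice carried Dp1Rhr, an inherited duplication that runs from Cbr1 to Fam3b on mouse chromosome 16 and puts Get1 at 3 copies in every cell. The other group of 5 mice were wild-type littermates with 2 copies, from the cross of the Dp1Rhr and Dp5Yah lines that was made to model parts of Down syndrome. The partners of Get1 lie on other chromosomes and had 2 copies in both groups. Each mouse was measured on 1 Affymetrix Mouse Gene 1.0 ST array, and values are log2 array signals, on which 1 unit is a doubling. The arrays had medians from 6.77 to 6.83, and pairs of arrays correlated at 0.9956 to 0.9981 over all probe sets. Their number limits the precision.

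The tissue label was checked against 12 neuronal genes of the hippocampus, such as Camk2a, Prox1 and Neurod6. All 12 had a mean signal above the 40th percentile of genes, and their mean per array was 11.30 to 11.32 in control and 11.25 to 11.29 in Dp1Rhr. The mean was thus lower in all 5 Dp1Rhr arrays than in any control. Of the 12 genes, 10 had a log2 fold change below 0 (median -0.05), and 0 were called in either direction. Markers of other cells and regions differed more between arrays. The mean of 10 choroid plexus markers, genes of the epithelium that makes cerebrospinal fluid, was 6.96 and 7.18 in control replicates 2 and 3 and 8.55 to 9.21 in the other 3 controls, against 8.74 to 9.63 in Dp1Rhr. The mean of 6 habenula markers ranged from 6.92 to 7.54 in control and from 6.96 to 8.41 in Dp1Rhr, and that of 6 oligodendrocyte markers from 11.50 to 11.63 and from 11.58 to 11.79. Astrocyte means lay between 10.95 and 11.06 in control and between 11.01 and 11.09 in Dp1Rhr, microglial means between 8.60 and 8.69 and between 8.67 and 8.74, and endothelial means between 9.03 and 9.19 and between 9.11 and 9.22. Of the blood list only Alas2 was measured, at 7.29 to 7.73 in control and 7.80 to 8.38 in Dp1Rhr. Its log2 fold change was 0.67 ± 0.11 SE (limma adjusted p = 0.0304), and it was the only marker gene called. The call of Alas2 was lost without control replicates 2 and 3 together (0.72). It was also lost when control replicate 2 or 5 or Dp1Rhr replicate 1, 2 or 4 was omitted. Values without control replicates 2 and 3 stand beside the results where leaving them out ends a call, turns a sign or moves a median or count by over 1.5 times. In whole tissue, fewer cells of a type and less RNA per cell cannot be told apart.

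Get1 lies on the forward strand at chr16:96145400-96157852. The 250 bases before its start are shown because they are duplicated together with the gene in Dp1Rhr (chr16:96145150-96145399, forward strand, RefSeq). Capitals mark a stretch of 22 bases that is repeated without a mismatch, beginning at positions 133 and 194 counted from 1 at the 5′ end.
Get1: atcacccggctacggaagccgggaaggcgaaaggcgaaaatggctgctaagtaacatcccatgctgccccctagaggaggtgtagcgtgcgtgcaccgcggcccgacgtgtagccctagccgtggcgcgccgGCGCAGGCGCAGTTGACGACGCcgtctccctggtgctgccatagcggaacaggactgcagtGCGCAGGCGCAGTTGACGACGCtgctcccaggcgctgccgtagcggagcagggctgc
Direct repeats of at least this length were found in 1.09% of 32851 mouse promoters of the same kind. These promoters run from 250 bases before a start to 50 after it, and in that window the sequence of Get1 was 68.3% G and C, above 88.0% of promoters, with 37 CpG dinucleotides (94.4% of promoters had fewer). Of 4 motifs searched there on both strands, none was in the window of Get1. They were the letters TATAAA (held by 13.6% of all promoters), then CCAAT (held by 37.4%), the GC box GGGCGG (held by 35.7%) and the cyclic AMP element core TGACGT (held by 7.51%). The start regions of Bag6 (59.3% G and C), Get4 (67.0% at its first start) and Ubl4a (69.7%) held GGGCGG, that of Sgta (60.0% at its first listed start) held both GGGCGG and the core TGACGT, and that of Get3 (51.3%) held CCAAT. These matches describe the letters only, and no binding was measured.

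Among the 6 measured genes Get1 stood higher in Dp1Rhr, and none of its 5 partners passed the test in either direction. Get1 stood 1.42-fold higher, while the partners differed from control by no more than 0.09 on the log2 scale in either direction. Over all 19938 genes, 125 were higher (0.627%) and 35 were lower (0.176%) in limma at an adjusted p of 0.05. These counts rested on single arrays: they were 5 and 0 without Dp1Rhr replicate 1, 217 and 67 without Dp1Rhr replicate 5, and 5 and 0 without control replicates 2 and 3, with the other cases given in the closing section. The 5 Dp1Rhr arrays lay above all 5 control arrays for 1.82% of genes and below them for 1.7%. Get1 was 1 of the genes without overlap, and since its rise led to its choice nothing is read from that count.

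Get1 encodes a membrane subunit of the receptor at the ER that takes tail-anchored proteins from GET3. The control arrays read 10.67, 10.69, 10.82, 10.78 and 10.67 for replicates 1 to 5. The Dp1Rhr arrays read 11.29, 11.21, 11.15, 11.31 and 11.19. The groups did not overlap, and the lowest Dp1Rhr array stood 0.333 above the highest control array. The control mean was 10.73 ± 0.07 (SD, n = 5) and the Dp1Rhr mean 11.23 ± 0.07 (SD, n = 5), a log2 fold change of 0.50 ± 0.04 SE (95% interval 0.41 to 0.59). As a fold this is 1.42, with an interval of 1.33 to 1.51. A ratio of 3 copies over 2 is 0.585 on the log2 scale and lay just within the upper end of the interval. It lay outside without Dp1Rhr replicate 4 (0.39 to 0.58) and with the arrays centred on the median of the tested genes (0.39 to 0.57). Whether a ratio of array signals equals a ratio of transcripts was not tested. By size the log2 fold change of Get1 ranked 69th among the genes that were higher. Get1 was selected on its rise, so nothing is read from that rank. Without control replicates 2 and 3 the log2 fold change was 0.52, and with any 1 of the 10 arrays left out it stayed between 0.48 and 0.53.

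Camlg, at chr13:55623005-55632416, encodes the other subunit of the receptor, which binds GET1 in the membrane and catches GET3 with its cytosolic part. Its control arrays read 8.74, 8.66, 8.88, 8.82 and 8.69 and its Dp1Rhr arrays 8.88, 8.89, 8.75, 8.89 and 8.81. The groups overlapped, although 3 of the 5 Dp1Rhr arrays lay above the highest control array. The log2 fold change was 0.09 ± 0.05 SE (95% interval -0.01 to 0.19) and did not pass (limma adjusted p = 0.42). This was the largest value among the partners, and its interval ended well short of 0.585.

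Get3, at chr8:85017929-85025287, encodes the ATPase that carries tail-anchored proteins to the receptor. Control arrays read 10.97, 10.87, 10.88, 10.86 and 10.87, and Dp1Rhr arrays 10.86, 10.83, 10.93, 10.73 and 10.82. Here 4 of the 5 Dp1Rhr arrays lay below the lowest control array and Dp1Rhr replicate 3 lay among the controls. The log2 fold change was -0.06 ± 0.04 SE (95% interval -0.14 to 0.03, limma adjusted p = 0.57). Get3 and Camlg thus had values of opposite sign, and both intervals included 0.

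Of the genes of the cytosolic steps before GET3, Bag6 and Sgta gave the narrowest intervals and Get4 one about as wide as that of Camlg. Bag6, at chr17:35135156-35147321, encodes the scaffold that also sends failed membrane proteins to the proteasome. It ranged from 10.77 to 10.87 in control (10.77, 10.82, 10.87, 10.78 and 10.83) and from 10.78 to 10.86 in Dp1Rhr (10.86, 10.83, 10.78, 10.79 and 10.81). The log2 fold change of Bag6 was 0.0021 ± 0.03 SE (95% interval -0.06 to 0.07, limma adjusted p = 0.99). Sgta, at chr10:81044071-81060271, encodes the chaperone that first binds the tail anchor. It read 10.91, 10.98, 10.93, 10.91 and 10.94 in control and 10.98, 10.92, 10.93, 10.93 and 10.92 in Dp1Rhr, which leaves the groups overlapping almost fully. Its log2 fold change was 0.00033 ± 0.03 SE (95% interval -0.06 to 0.06, limma adjusted p = 0.999). Get4, at chr5:139252324-139270050, encodes the adaptor that links the BAG6 complex to GET3. Control arrays read 8.73, 8.59, 8.65, 8.74 and 8.79 and Dp1Rhr arrays 8.77, 8.82, 8.62, 8.75 and 8.68. The log2 fold change of Get4 was 0.03 ± 0.05 SE (95% interval -0.07 to 0.13, limma adjusted p = 0.86), and it was -0.02 without control replicates 2 and 3. Its sign is thus not settled.

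**Figure D1:**
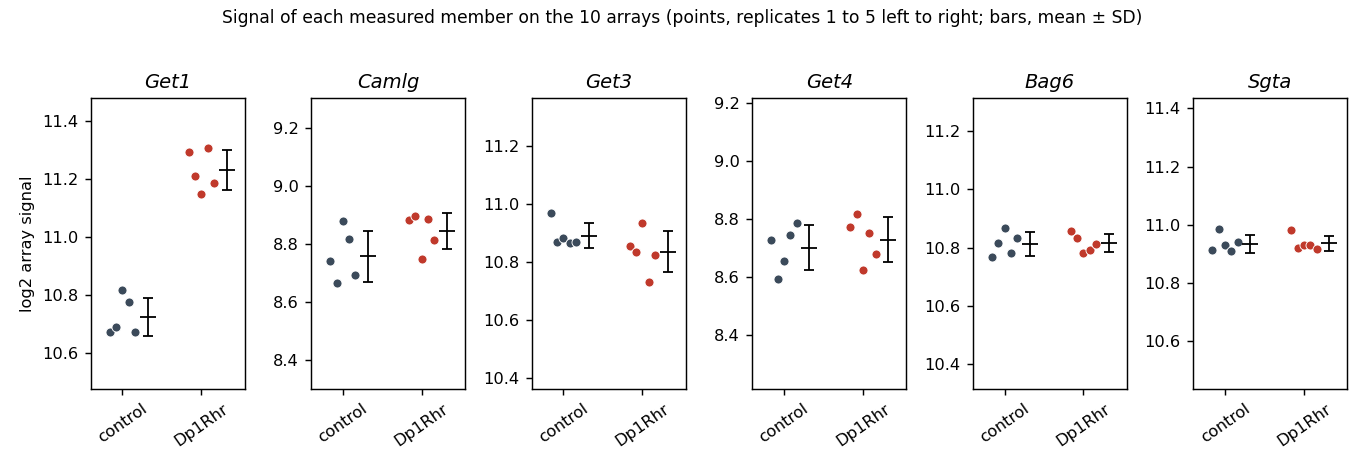
Log2 array signal of the 6 measured genes of tail-anchored protein insertion in 5 control (dark) and 5 Dp1Rhr (red) mice, 1 point per array, with the mean and SD of each group as a bar and every panel spanning 1 log2 unit. The Get1 groups are 0.333 apart at their nearest arrays, and in the other 5 panels the groups overlap.

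Read together, the 5 partners had a median log2 fold change of 0.0021 against -7.57e-05 over all genes, and none had an unadjusted p under 0.05, where 2990 of 19938 genes did. Their SEs were 0.03 to 0.05, near the median SE of all genes of 0.04. The upper ends of their 95% intervals reached 0.19 at most, so 0 of 5 held 0.585, and the lower ends reached -0.14 at most. These arrays therefore bound the change of each partner at a level below what Get1 showed. A p that misses the threshold does not show that the partners were at equal levels in both groups.

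**Figure D2:**
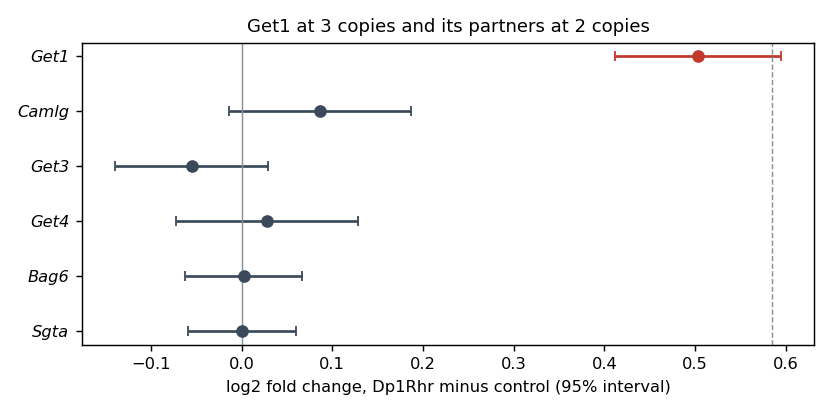
Log2 fold change of each gene (Dp1Rhr minus control, 5 mice each) with its 95% interval from limma, with a solid line at 0 and a dashed line at 0.585, a ratio of 3 over 2. The interval of Get1 (0.41 to 0.59) holds 0.585, and those of its 5 partners end at or below 0.19.

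The difference between Get1 and its partners was also taken within each array, after setting the control mean of every gene to 0. The excess of Get1 over the mean of the 5 partners was -0.06, -0.00300, 0.07, 0.05 and -0.06 in the controls and 0.52, 0.44, 0.44, 0.58 and 0.47 in Dp1Rhr, a difference of 0.49 ± 0.04 SE. The smallest Dp1Rhr excess was thus well above the largest control excess. Against single partners the excess of Get1 ran from 0.42 ± 0.03 SE for Camlg to 0.56 ± 0.07 SE for Get3. No test was made of these differences, since Get1 was selected on its rise.

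Around the mean of its own group, Get1 varied much as its receptor partner Camlg did. Both stood highest in control replicates 3 and 4 among the controls, and both were lowest in Dp1Rhr replicate 3. They parted in Dp1Rhr replicate 2, where Camlg stood at 0.050, its highest Dp1Rhr array, and Get1 at -0.019. The pooled SD within groups was 0.0674 for Get1 and 0.0768 for Camlg but 0.0400 for their difference, which ranks 82nd from the smallest among 19937 genes paired with Get1 (median 0.0946). For Bag6 and Sgta, which vary little themselves, the SD of the difference was 0.0625 and 0.0710, for Get4 0.0899 and for Get3 0.113. The pattern was noticed after the values were seen, the points share arrays and normalization, and it is given as a description of 10 arrays.

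**Figure D3:**
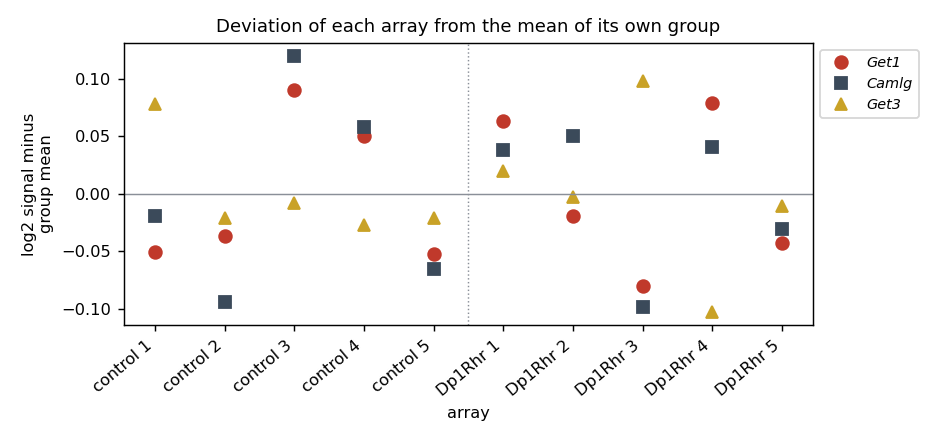
Log2 signal of Get1, Camlg and Get3 on each array minus the mean of the 5 arrays of its own group, control to the left of the dotted line and Dp1Rhr to the right. Get1 and Camlg are both above their means in control replicates 3 and 4 and below them in Dp1Rhr replicate 3, where Get3 is above its mean. In Dp1Rhr replicate 2 Camlg is above its mean and Get1 below.

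Get1 was next set beside the other genes of the duplication, which share its 3 copies. Of the 31 interval genes that were measured, 14 including Get1 were called higher, where 0.627% of all genes were. The median log2 fold change was 0.21 and Get1 ranked 3 of 31 by size. Nothing is read from the call or the rank of Get1, which was selected on its rise. The median depended on dim genes: with genes below the 40th percentile of signal left out, 20 interval genes remained. Of these 14 were called and the median was 0.34. For all 31 genes the median held between 0.19 and 0.22 with any array left out, but fewer genes were called. Calls were 5 without control replicates 2 and 3 together and 2 with the replicate block. With a choroid plexus score per array in the model, 3 were called. Of single arrays, control replicates 2 and 5 left 7 and 6 calls when omitted, and Dp1Rhr replicates 1, 2 and 4 left 4, 5 and 6. The nearest measured genes had smaller values. Hmgn1, which encodes a nucleosome-binding protein and lies 17674 bases before Get1, had 0.17 ± 0.05 SE (limma adjusted p = 0.114), with arrays from 8.07 to 8.24 in control and 8.25 to 8.47 in Dp1Rhr. Brwd1, which encodes a bromodomain protein and lies further along on the same side, rose by 0.35 ± 0.06 SE (adjusted p = 0.0269). That call was lost when control replicate 2 or 3 or Dp1Rhr replicate 1, 2 or 4 was omitted (adjusted p = 0.0509 to 0.0761). Without both of those controls it was also lost (0.30, adjusted p = 0.101). The same held with the replicate block (limma adjusted p = 0.1238) and with the choroid plexus score in the model (0.28, limma adjusted p = 0.1225). On the other side Lca5l ends 553 bases past the end of Get1 on the opposite strand, so that their 3′ ends face each other. It read 5.27 to 5.43 in control and 5.36 to 5.50 in Dp1Rhr, and its log2 fold change was 0.10 ± 0.04 SE (limma adjusted p = 0.236). Sh3bgr behind it had 0.07 ± 0.03 SE (adjusted p = 0.316), with control and Dp1Rhr means of 5.54 and 5.61. Lca5l and Sh3bgr were the dimmest of these genes, with control means of 5.35 and 5.54 that lie below the median of every array.

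**Figure D4:**
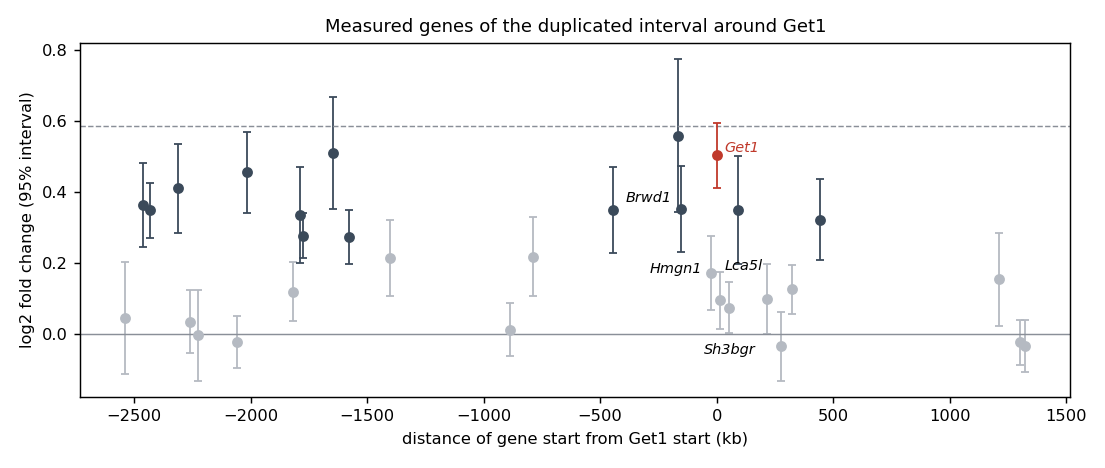
Dp1Rhr minus control in log2 units (5 mice each) with 95% interval for the 31 measured genes of the duplication, against the distance of each gene start from that of Get1 in kb. Get1 (red) at 0.50 ranks 3 of 31 and stands above its neighbours Brwd1 at 0.35 and Hmgn1, Lca5l and Sh3bgr at 0.17 or below. Dark points mark other genes that passed an adjusted p of 0.05, and the dashed line is 0.585.

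Over all 10 arrays, the genes whose values lay closest to those of Get1 were found by the root mean square difference after subtracting the control mean of each gene. The difference between the groups stays in this measure. It therefore mainly picks genes with a change of like size and does not show that genes vary together within groups. The closest was Ddo on chromosome 10, which encodes D-aspartate oxidase, with a difference of 0.071 and a change of 0.52 ± 0.06 SE on the log2 scale. Vps26c (0.0859), a gene of endosomal sorting, and Hlcs (0.0955), which attaches biotin to carboxylases, followed, and both lie in the duplication. Cabcoco1 on chromosome 10 (0.0992) and Crot on chromosome 5 (0.101), a peroxisomal carnitine acyltransferase gene, came next. Of these, Ddo, Cabcoco1 and Crot have 2 copies in both groups. The pathway partners were further away, with Camlg at 0.297 in rank 1787 and Get3 at 0.407 in rank 16460.

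The question of what else moved in membrane insertion was put to lists of related genes. Each was described by its counts and its median beside the median of all genes, which was near 0, with 9954 of 19938 genes above 0. Over all genes 0.627% rose and 0.176% fell. Without overlap between the groups, 1.82% of all genes were higher in Dp1Rhr and 1.7% lower. Of 9 other genes that handle tail anchors (ubiquilins, Sgtb, Ubl4b, Rnf126, Hspa8, Atad1 and Atp13a1), 0 rose and 0 fell. Their median was -0.01 and 3 values lay above 0. Without control replicates 2 and 3 the median was 0.00037 with 5 above 0, and with the choroid plexus score in the model 0.0080 with 5 above 0, so the list has no settled sign. Sgtb, the neuronal relative of Sgta, had the highest value at 0.08 ± 0.04 SE (limma adjusted p = 0.39), and Ubqln4, a ubiquilin that shields membrane segments in the cytosol, the lowest at -0.07 ± 0.05 SE (adjusted p = 0.58).

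GET1 belongs with EMC3, TMCO1 and the mitochondrial OXA1L and COX18 to the Oxa1 superfamily of insertases. Of the 4 genes other than Get1, 1 rose, Tmco1, and all 4 lay above 0 (median 0.10). Tmco1, at chr1:167308670-167333978, acts with the multipass translocon, which folds proteins with several membrane segments. It read 9.09, 9.09, 9.10, 9.18 and 9.16 in control and 9.34, 9.31, 9.36, 9.26 and 9.26 in Dp1Rhr, with every Dp1Rhr array above every control. Its log2 fold change was 0.18 ± 0.03 SE (95% interval 0.11 to 0.25, limma adjusted p = 0.0337), a 1.14-fold rise, well under that of Get1. Leaving out a single array ended the call of Tmco1 in 7 of 10 cases, namely without control replicate 1, 2, 3 or 5 or Dp1Rhr replicate 1, 2 or 4 (adjusted p up to 0.114), and without control replicates 2 and 3 together (0.17, adjusted p = 0.14). It was also lost when the model held a choroid plexus score per array (0.17, adjusted p = 0.143). Cox18, the mitochondrial member with the next largest value, had 0.11 ± 0.07 SE (adjusted p = 0.49).

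The ER membrane protein complex (EMC) inserts tail-anchored proteins with less hydrophobic anchors, beside the route through GET1. Of its 9 measured subunits, 0 rose and 0 fell over all genes, and 2 were higher at an unadjusted p under 0.05, as were 1705 of all 19938 genes (8.55%). All 9 log2 fold changes lay above 0, from 0.04 to 0.14, with a median of 0.08, and the median was 0.11 without control replicates 2 and 3. Emc7 had the largest, 0.14 ± 0.03 SE (limma adjusted p = 0.0828), with control arrays of 11.29 to 11.39 and Dp1Rhr arrays of 11.43 to 11.56 that did not overlap. Emc8 had 0.11 ± 0.05 SE (adjusted p = 0.34). Emc3 is counted in this list and among the Oxa1 relatives.

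In the multipass translocon, 1 of 7 genes rose, again Tmco1, 0 fell and the median was 0.09, which was 0.06 without control replicate 2. Wdr83os, which encodes a small subunit of this machine, had 0.24 ± 0.11 SE (limma adjusted p = 0.34), and its arrays spread from 10.83 to 11.40 in control and from 11.03 to 11.56 in Dp1Rhr. The signal recognition particle and the Sec61 channel insert most other membrane proteins while they are made. Of 19 measured genes of that route 0 rose and 0 fell, with a median of 0.04 and 13 values above 0, and the median was 0.06 without Dp1Rhr replicate 3, 0.01 with centring on the tested genes and 0.02 with the choroid plexus score. Srpr, for the receptor subunit that docks the particle, had 0.14 ± 0.07 SE (adjusted p = 0.38), and Sec61a1, for the channel itself, had 0.14 ± 0.04 SE (adjusted p = 0.125).

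Genes that encode tail-anchored proteins were examined in the same way. Which of these proteins take the route through GET1 was not tested. Of 27 measured SNARE genes that encode tail-anchored proteins, 0 rose and 0 fell, and the median was 0.03 with 16 values above 0. The median was 0.0015 without control replicate 1, 0.02 without control replicate 5 or Dp1Rhr replicate 2 or 5, and 0.0029 with centring on the tested genes. The presynaptic Stx1a had 0.03, while Vamp2 and Stx10 had no probe set with a single symbol. The largest value belonged to Vamp8, an endosomal SNARE, at 0.37 ± 0.15 SE (limma adjusted p = 0.26). Its control arrays read 8.31, 7.57, 7.77, 8.26 and 7.88, with the lowest values in replicates 2 and 3, the arrays lowest for choroid plexus, and its Dp1Rhr arrays 8.44, 8.40, 8.15, 8.01 and 8.62. The part of choroid plexus in the value of Vamp8 was not tested. Bet1, a SNARE of traffic between ER and Golgi, had 0.14 ± 0.04 SE (adjusted p = 0.117) and passed without control replicate 4 (0.17, adjusted p = 0.0448).

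Among 21 measured genes for other tail-anchored proteins of the ER, mitochondria and nuclear envelope, 0 rose and 0 fell, with a median of 0.02. The median was 0.04 without control replicates 2 and 3, 0.03 without control replicate 3 or Dp1Rhr replicate 3 or 5, 0.01 without Dp1Rhr replicate 1 and -0.0041 with centring on the tested genes, so its sign is not settled. Cyb5a, which encodes cytochrome b5, had the highest value at 0.21 ± 0.05 SE (limma adjusted p = 0.0651). The arrays of Cyb5a read 10.39 to 10.51 in control and 10.56 to 10.81 in Dp1Rhr without overlap. Ptpn1, a tyrosine phosphatase gene of the ER surface, had the lowest at -0.20 ± 0.04 SE (adjusted p = 0.0694), with 9.03 to 9.25 in control and 8.88 to 9.01 in Dp1Rhr, again without overlap. Both genes passed in some alternatives, Cyb5a higher without Dp1Rhr replicate 5 (adjusted p = 0.0346), with eBayes trend and robust (adjusted p = 0.0474) and in FCROS, and Ptpn1 lower with centring on the tested genes (adjusted p = 0.0478), with array weights (adjusted p = 0.0405) and in FCROS.

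Genes of the ER stress response, which rise when proteins fail to fold in the ER, were listed as a readout of that organelle. Of 15 genes, 0 rose and 0 fell. Their median was 0.07 with 11 values above 0, but it was -0.0040 with 6 above 0 without control replicates 2 and 3, and -0.01 without control replicate 2 alone. It was also below 0 with the choroid plexus score in the model (-0.02, with 4 of 15 above 0), so no direction is given for this list. Sdf2l1, an ER chaperone partner, had 0.24 ± 0.26 SE (limma adjusted p = 0.76) and a control range from 8.58 to 10.06, and Herpud1, a gene of ER-associated degradation, had -0.16 ± 0.09 SE (adjusted p = 0.42).

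**Figure D5:**
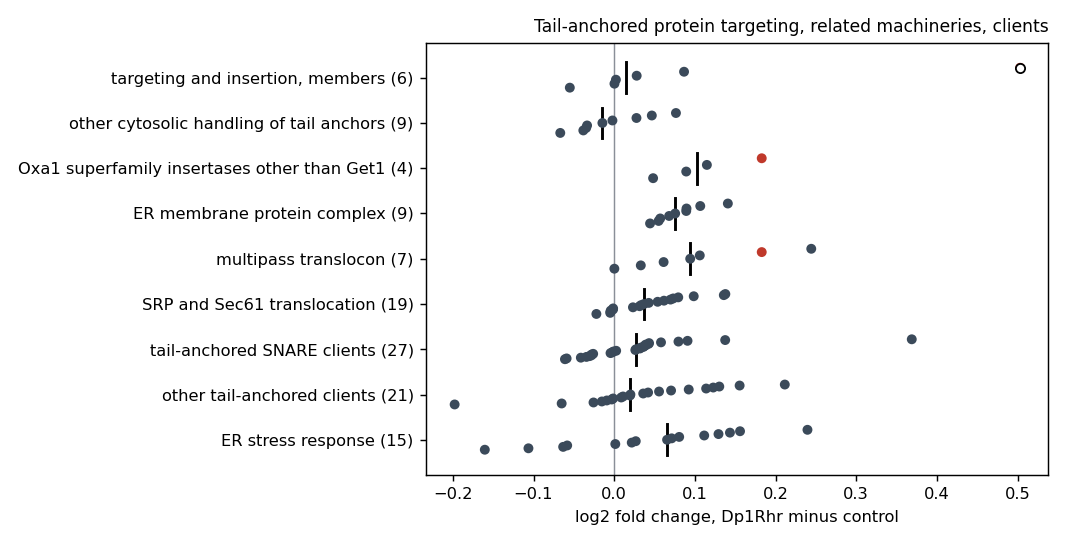
Dp1Rhr minus control in log2 units (5 mice each) for each measured gene in 9 lists, with the number of genes in parentheses and the list median as a black bar. The open circle is Get1, described without a test, red marks Tmco1, which stands in 2 lists and reached an adjusted p of 0.0337, and all 9 points of the ER membrane protein complex lie above 0.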

How the data were processed

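Total RNA of the hippocampus of 10 mice (5 per genotype, biological replicates per the labels) was hybridised to 1 array each. The authors normalized the scans with RMA, which corrects background, quantile normalizes the arrays and summarises probe sets, and deposited log2 values for 35556 probe sets. Beside RMA, the submitters' processing notes list limma and mm10. Which arrays were normalized together is not given in the sources used here, and quantile normalization hides any shift common to the whole transcriptome. The labels give the background as C57BL/6N and the study's methods as C57BL/6J.

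Of the probe sets, 21789 had 1 gene symbol in the platform annotation, 1621 had several and 12146 were not listed there. The brightest probe set was used for the 999 genes with several, which left 19938 genes. Each measured pathway gene had 1 such probe set. Entrez identifiers matched 21698 probe sets to RefSeq (GRCm38.p6), where Camlg is named Caml. Promoter sequences came from RefSeq, and Camlg was not matched there.

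Groups were compared in limma 3.58.1 (R 4.3.3, lmFit and eBayes, two-sided, Benjamini-Hochberg over all genes, threshold 0.05), after tests on simulated data. The study used FCROS, which calls a near-fixed share of genes and was an alternative here (trim 0.25, f-value limits 0.025 and 0.975, 25 pairs). The genes, lists and tests were chosen with earlier results of these data known. Named genes were all pathway members, the list genes that passed and the 2 largest absolute changes per list. Also named were the 2 measured neighbours of Get1 on either side and the 5 genes closest to it by root mean square difference. Stx1a was named after its value was seen. The choroid plexus score averaged the z-scored values of that list on each array. The other alternatives were a replicate block, leaving out arrays, a second quantile normalization, centring on array medians, a filter at the 40th percentile of signal, the mean of probe sets, eBayes with trend and robust, and array weights. Centring on the median of the tested genes was added after the data were seen. Replicate numbers were not taken to pair the mice: correlations of deviations from the group means were 0.124, -0.327, -0.337, -0.0825 and 0.0685 for numbers 1 to 5.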

Additional observations from a re-analysis of the deposited data

Results flagged for a closer look

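In 2 of the 12 groups of 5 arrays examined (the 6 pathway genes in each genotype), 1 array stood far from the others by Dixon's ratio, the gap to the nearest array over the range of the group, whose 95% limit is 0.71 for 5 values. Chance flags about 1 in 20 such groups. For Get3 the ratio was 0.822, from control replicate 1 at 10.97 while the other controls read 10.86 to 10.88. For Sgta it was 0.783, from Dp1Rhr replicate 1 at 10.98 while the other Dp1Rhr arrays read 10.92 to 10.93.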

How the results depend on the processing

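The log2 fold change of Get1 was 0.48 to 0.53 in the alternatives run, 0.50 with the replicate block, and no partner was called in any of them. FCROS also called Vamp8 and Wdr83os higher. Counts over all genes depended far more on the setting, and the cause was not tested. The 125 higher and 35 lower genes became 4 and 0 with the replicate block, 5 and 0 without control replicates 2 and 3 together, 6 and 1 with the choroid plexus score as covariate, 213 and 67 with array weights, and 678 and 397 with FCROS. The lower count was 17 with arrays centred on their medians (107 higher) and 89 with arrays centred on the median of the tested genes (97 higher), a centring that moves every log2 fold change by 0.02. With 1 array left out they ranged from 5 to 217 higher and from 0 to 67 lower: higher calls were 18, 37 and 11 without control replicates 2, 3 and 5, 5, 10 and 12 without Dp1Rhr replicates 1, 2 and 4, and 217 without Dp1Rhr replicate 5. Lower calls were 17, 1, 5, 16 and 1 without control replicates 1 to 5, 67 without Dp1Rhr replicate 5 and 0 without any of Dp1Rhr replicates 1, 2 and 4.

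The partners near 0 changed sign. Get4 was -0.0234 without control replicates 2 and 3 and -0.0321 with the choroid plexus score. With centring on the tested genes Bag6 was -0.0221 and Sgta -0.0239, and with 1 array left out they ranged from -0.0092 to 0.0156 and from -0.0113 to 0.0128. Tmco1 also lost its call with the replicate block (adjusted p = 0.145) and with centring on the tested genes (0.16, adjusted p = 0.0571). Replicates with the same number did not deviate together, so the block gives no measure of a paired effect, and 0 of 5 arrays correlated best with its own number.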
